A study of Mus musculus with 16 samples.

Results

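Podocytes are the epithelial cells that wrap the capillaries of the glomerulus, and 6 of their marker genes, Nphs1, Synpo, Podxl, Ptpro, Plce1 and Wt1, were followed in 16 RNA libraries of mouse kidney. The genes were taken by symbol from a table of 46078 genes, and each symbol matched 1 row. The table came from total kidney RNA of C57BL/6 mice aged 20 weeks, killed 72 h after an intraperitoneal injection. BL_vehicle (n = 4) received 0.9% saline with no preconditioning, and BL_cisplatin (n = 4) received cisplatin, a platinum drug that injures the renal tubule, with none. CR_cisplatin (n = 4) received cisplatin after 4 weeks of calorie restriction. HP_cisplatin (n = 4) received cisplatin after hypoxia for 2, 4 and 8 h on 3 successive days, the last at least 1 h before the injection. No preconditioned group received saline, so the preconditioning could not be separated from its combination with cisplatin. The labels name no genetic change, and all animals were perfused before the kidneys were halved and frozen.

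Values are TPM, that is, reads of a gene divided by its exon length and scaled so that each library sums to 1000000. TPM can therefore be compared between genes, but each value is a share of the RNA measured. In RNA of whole kidney, fewer podocytes and less RNA per podocyte cannot be told apart. Log2 fold changes are differences between group means of log2(TPM + 1), and the added 1 shrinks them where TPM are low. They were tested with limma across 15014 genes, and a gene was called at a Benjamini-Hochberg adjusted p under 0.05. Recovered read totals were between 49174110 and 62594474 per library, and each of the 6 genes had between 255 reads (Wt1) and 7266 reads (Podxl) in a library. The labels number no replicates and do not say that each library came from a separate mouse, so p-values measure the spread between these libraries. Library titles carry 2 prefixes, whose meaning the labels do not give. One holds the 4 BL_cisplatin libraries and CR_cisplatin 1, and the other the remaining 11 (BL_cisplatin and its prefix cannot be told apart except through CR_cisplatin 1). HP_cisplatin 4 stood apart from its group: its Havcr1, the gene of the tubular injury marker KIM-1, was 0.473 TPM against 582, 51.0 and 409 TPM in HP_cisplatin 1 to 3. It was closest to CR_cisplatin 4. The squared difference of these 2 libraries was 1.81 times that expected from counting error alone, against 3.33 times in the next closest of 120 pairs. Both were kept in the groups their labels give, and the calls of HP_cisplatin are also given without HP_cisplatin 4. The kidney identity of the tissue was clear in BL_vehicle, where Slc34a1, a phosphate transporter made in proximal tubule cells, had a mean of 1787.4 TPM and Umod, the uromodulin gene of the thick ascending limb, 1442 TPM.

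The podocyte sends out interlocking foot processes, joined by the slit diaphragm, a junction built on nephrin (Nphs1). Synaptopodin (Synpo) organises actin in the foot processes, podocalyxin (Podxl) is the charged sialomucin that keeps their free surfaces apart, and Ptpro (GLEPP1) is a receptor tyrosine phosphatase of the same surface. Phospholipase C epsilon (Plce1) signals beneath the membrane, and the transcription factor WT1 is required for podocyte identity. Some of these genes are also known from other cells: Podxl is made by endothelium, Wt1 by parietal cells of Bowman's capsule, and Synpo by neurons. Mutations in NPHS1, PLCE1, PTPRO and WT1 cause nephrotic syndrome in people.

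After cisplatin without preconditioning the 6 genes did not move as a group. Synpo rose 2.57-fold by mean TPM, Wt1 rose 1.499-fold, Podxl and Ptpro fell to 0.766 and 0.705 of the vehicle level, and Nphs1 and Plce1 were not called. Thus 2 of 6 were called higher and 2 of 6 lower, where 38% of all genes tested were called higher, 28.8% lower and 66.8% either way. Of all calls 56.9% were higher, a share of 68.7% with the most abundant, mitochondrial and red cell genes left out, 65.2% with voom on recovered reads and 46.0% with a trimmed mean of log ratios (TMM). Libraries of the 2 groups did not overlap for 4 of the 6 genes, against 63.5% of all genes. The median log2 fold change of the 6 was 0.14, beside 0.08 over all genes (0.25, 0.23 and -0.03 under those 3 scalings in turn). Of 28 proximal tubule genes, in contrast, 26 were called lower, 1 higher and 1 was not called, with a median of -2.83. In the thick ascending limb 9 of 10 genes were called lower (median -2.24), and in the distal convoluted tubule 7 of 8 (median -2.44). The summed TPM of the 28 proximal tubule genes was 10369.0 to 12423.2 in BL_vehicle and 1656.8 to 2325.0 in BL_cisplatin. That of the 6 podocyte genes was 40.7 to 44.6 in BL_vehicle and 35.9 to 50.3 in BL_cisplatin, so the groups overlapped.

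**Figure D1:**
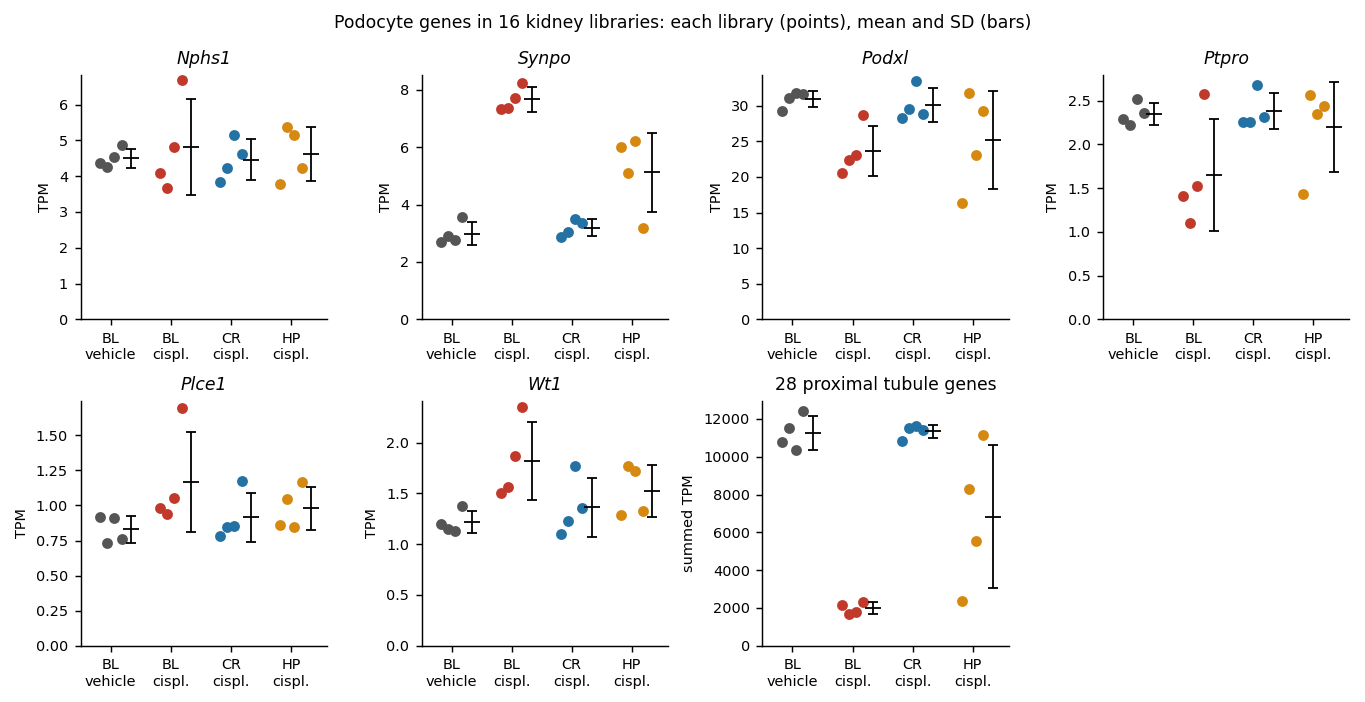
TPM (vertical axes, from 0) of the 6 podocyte genes and the sum of 28 proximal tubule genes in each library (points) by group, with mean and SD (bars, n = 4). Synpo is the gene whose 4 BL_cisplatin libraries, 7.34 to 8.25 TPM, lie farthest above vehicle, and the proximal tubule sum of HP_cisplatin runs from 2340.5 to 11177.5.

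Nphs1 (ENSMUSG00000006649, chromosome 7, 30458315 to 30487223, plus strand, GRCm38) encodes nephrin, the adhesion protein that spans the slit. It measured 4.36, 4.25, 4.52 and 4.86 TPM in BL_vehicle 1 to 4. In BL_cisplatin 1 to 4 it measured 4.08, 3.65, 4.82 and 6.68 TPM. The BL_cisplatin libraries lay on both sides of the vehicle libraries, and BL_cisplatin 4 was the highest of all 16. CR_cisplatin ranged from 3.85 to 5.16 TPM and HP_cisplatin from 3.77 to 5.37. Group means were 4.50 ± 0.263 (SD, n = 4) in BL_vehicle, 4.81 ± 1.34 in BL_cisplatin, 4.46 ± 0.563 in CR_cisplatin and 4.62 ± 0.755 in HP_cisplatin, and the libraries of all 4 groups overlapped. The log2 fold change of BL_cisplatin against vehicle was 0.05 (95% interval -0.24 to 0.35, limma adjusted p = 0.741). Under the other scalings it was between -0.06 (TMM) and 0.20 (abundant genes left out), and the sign thus followed the scaling, with no call under any of them. The exons of Nphs1 overlap 597 bases of the antisense gene Nphs1os, which was listed at 0 to 0.0183 TPM. Strand use in the counting is not given in the sources used here, so reads of the pair cannot be told apart.

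Synpo (ENSMUSG00000043079, chromosome 18, 60593973 to 60660142, minus strand) moved most. It measured 2.71, 2.89, 2.77 and 3.57 TPM in BL_vehicle 1 to 4 and 7.34, 7.37, 7.72 and 8.25 TPM in BL_cisplatin 1 to 4. Every BL_cisplatin library exceeded every library of the other 3 groups. CR_cisplatin 1 to 4, at 2.89, 3.06, 3.51 and 3.35 TPM, overlapped vehicle. HP_cisplatin 1 to 4 measured 6.01, 5.11, 6.21 and 3.20 TPM, so the fourth library lay within the vehicle range and the first 3 between vehicle and BL_cisplatin. The means were 7.67 ± 0.425 (SD, n = 4) in BL_cisplatin, 5.13 ± 1.38 in HP_cisplatin, 3.20 ± 0.281 in CR_cisplatin and 2.99 ± 0.396 in BL_vehicle. Of neighbours in that order, BL_cisplatin and HP_cisplatin alone did not overlap. The log2 fold change of BL_cisplatin against vehicle was 1.12 (SE 0.136, limma adjusted p = 4.3e-05), and it stayed between 1.01 (TMM) and 1.497 (voom) and called under every alternative run, the prefix as a term included (1.27, adjusted p = 0.035). Marker genes of other cells moved in the same libraries. The 8 parietal epithelial genes summed to 55.7 to 65.3 TPM in vehicle and 283 to 308 in BL_cisplatin (52.1 to 60.2 and 111.1 to 157.4 without Akap12). The 9 leukocyte genes summed to 31.7 to 44.1 TPM in vehicle and 79.7 to 93.9 in BL_cisplatin, a rise carried by Cd68: without it the sums overlapped, at 29.9 to 42.6 and 20.9 to 52.5 TPM. Their part in the rise of Synpo was not tested, and RNA of whole kidney does not show which cells gave these reads.

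Wt1 (ENSMUSG00000016458, chromosome 2, 105126529 to 105173616, plus strand) measured 1.20, 1.15, 1.13 and 1.38 TPM in BL_vehicle 1 to 4. BL_cisplatin 1 to 4 measured 1.51, 1.57, 1.87 and 2.35 TPM, all above vehicle. The means were 1.82 ± 0.384 TPM (SD, n = 4) and 1.22 ± 0.111, and the log2 fold change of 0.34 (SE 0.110) was called (limma adjusted p = 0.0134). It was also called under the other scalings (0.26 to 0.70) but not with the prefix as a term (0.56, adjusted p = 0.0634). CR_cisplatin ranged from 1.10 to 1.77 TPM and HP_cisplatin from 1.29 to 1.77, so both overlapped vehicle and BL_cisplatin alike. Their order, BL_cisplatin, HP_cisplatin, CR_cisplatin, BL_vehicle, held no pair of neighbours without overlap. The rise of Wt1 stood beside that of 7 of the 8 parietal epithelial genes, where 38% of all genes were called higher. In the same libraries 7 of 8 tubular injury genes were also called higher. The parietal list is named for cells that also make Wt1, but RNA of whole kidney does not show which cells gave its reads. The part of those cells in the rise was not tested.

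Podxl (ENSMUSG00000025608, chromosome 6, 31519488 to 31563981, minus strand) was the most abundant of the 6 per length. It measured 29.3, 31.0, 31.7 and 31.6 TPM in BL_vehicle 1 to 4 and 20.6, 22.4, 23.1 and 28.7 TPM in BL_cisplatin 1 to 4. All 4 BL_cisplatin libraries lay below vehicle, the fourth by little. The means were 23.7 ± 3.51 TPM (SD, n = 4) and 30.9 ± 1.15, and the log2 fold change was -0.38 (SE 0.158, limma adjusted p = 0.0455). That call was lost without the filter on low values (adjusted p = 0.0729), with the abundant genes left out (-0.24, 0.154), with the prefix as a term (-0.27, 0.523), with voom on recovered reads (-0.27, 0.111) and in 12 of 16 fits that left out 1 library. Among 12 genes listed as glomerular endothelial, 8 were called lower, 2 higher and 2 were not called (median -0.44). Of all genes tested, 28.8% were called lower and 38% higher. Endothelium also makes Podxl, but RNA of whole kidney does not show whether the reads of these 12 genes came from the glomerulus. Those called lower included Ehd3 (13.2 to 4.79 TPM by group mean, log2 fold change -1.31), Tek (-1.24) and Kdr (-1.19), receptors of angiopoietin and VEGF in the latter 2 cases. Eng was 1 of the 2 called higher (0.33). The summed TPM of the 12 was 150.5 to 178.9 in vehicle and 111.4 to 128.2 in BL_cisplatin, and their part in the value of Podxl was not tested. CR_cisplatin measured 28.3 to 33.5 TPM and overlapped vehicle. HP_cisplatin 1 to 4 measured 16.4, 31.8, 23.1 and 29.3 TPM, from the lowest value of all 16 libraries to above every vehicle library.

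Ptpro (ENSMUSG00000030223, chromosome 6, 137252319 to 137463233, plus strand) measured 2.29, 2.22, 2.52 and 2.36 TPM in BL_vehicle 1 to 4. BL_cisplatin 1 to 4 measured 1.41, 1.10, 1.53 and 2.58 TPM. The first 3 of these lay below vehicle and the fourth above it, so the groups overlapped. The log2 fold change was -0.36 (SE 0.145, limma adjusted p = 0.0390). The call was lost without the filter (adjusted p = 0.0623), with the abundant genes left out (0.0795), in a fit of the 2 groups alone (0.0507), with the prefix as a term (-0.29, 0.447), with voom (0.0563) and in 7 of 16 fits without 1 library. Without BL_cisplatin 4 the log2 fold change was -0.51 (limma adjusted p = 0.00191). CR_cisplatin, at 2.25, 2.26, 2.68 and 2.31 TPM, was called higher than BL_cisplatin (0.37, adjusted p = 0.0335), also a call that several alternatives lost. HP_cisplatin 1 to 4 measured 1.43, 2.57, 2.35 and 2.44 TPM, with the first at the level of BL_cisplatin and the others at that of vehicle.

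Nphs1 and Ptpro are shown here as sequence because their levels varied together from library to library within groups, while Ptpro was called after cisplatin and Nphs1 was not. That call of Ptpro was lost in 7 of 16 fits without 1 library, so a different response of the 2 genes is not established. RefSeq promoter windows of 300 bases, from 250 before to 50 after the annotated start on GRCm38.p6, were at hand for 3 of the 6 genes (Nphs1, Ptpro and Plce1). The window of Nphs1 is chr7:30459808-30460107 and that of Ptpro chr6:137252049-137252348, both on the plus strand and printed 5′ to 3′. The RefSeq start lies 1743 bases inside the GENCODE span of Nphs1 given above, 43088 bases inside that of Plce1 and 20 bases before that of Ptpro, so the windows of Nphs1 and Plce1 belong to an inner start. Capitals mark the E box letters CANNTG, the core to which basic helix-loop-helix factors such as the podocyte factor TCF21 bind.
Nphs1: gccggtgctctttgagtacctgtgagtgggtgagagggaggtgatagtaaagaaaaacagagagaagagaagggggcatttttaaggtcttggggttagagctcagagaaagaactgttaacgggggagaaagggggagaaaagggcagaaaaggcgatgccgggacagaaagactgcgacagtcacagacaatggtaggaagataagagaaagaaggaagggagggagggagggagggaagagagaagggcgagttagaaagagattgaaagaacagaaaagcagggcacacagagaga
Ptpro: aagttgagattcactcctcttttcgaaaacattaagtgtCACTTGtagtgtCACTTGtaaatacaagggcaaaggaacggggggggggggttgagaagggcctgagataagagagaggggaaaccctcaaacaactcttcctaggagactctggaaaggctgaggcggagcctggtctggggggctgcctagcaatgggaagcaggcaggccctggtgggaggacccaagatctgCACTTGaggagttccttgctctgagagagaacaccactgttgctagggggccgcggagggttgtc
The window of Nphs1 held 0 E boxes, that of Ptpro 3, each CACTTG, and that of Plce1 1 (CAACTG). Of 32851 promoter windows of the same length, 72.3% held at least 1. Both strands were searched, and CANNTG reads the same on both. The letters GCGNGGGCG (EGR and WT1 type), TAATTA (LMX1B type) and TGCTGAC (MAF type) were found in none of the 3 windows, and in 5.55%, 5.29% and 4.67% of all windows. GC content was 49.7% in the Nphs1 window, 54.7% in that of Ptpro and 41.0% in that of Plce1, beside a median of 52.7%. A match is a match of letters in this window only.

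Plce1 (ENSMUSG00000024998, chromosome 19, 38481109 to 38785030, plus strand) was the lowest of the 6. It passed the filter of 1 TPM in 4 libraries with 5 libraries at or above it, BL_cisplatin 3 and 4, CR_cisplatin 4 and HP_cisplatin 2 and 4. It measured 0.919, 0.732, 0.908 and 0.762 TPM in BL_vehicle 1 to 4 and 0.983, 0.937, 1.06 and 1.70 TPM in BL_cisplatin 1 to 4. All BL_cisplatin libraries lay above vehicle, 3 of them narrowly. The log2 fold change of 0.23 was not called (95% interval -0.00011 to 0.47, limma adjusted p = 0.0716). It was called with the abundant genes left out (0.47, adjusted p = 0.0105) and with voom on recovered reads (0.59, 0.00638). CR_cisplatin ranged from 0.785 to 1.18 TPM and HP_cisplatin from 0.845 to 1.17, and no neighbouring groups in the order of means were separated.

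**Figure D2:**
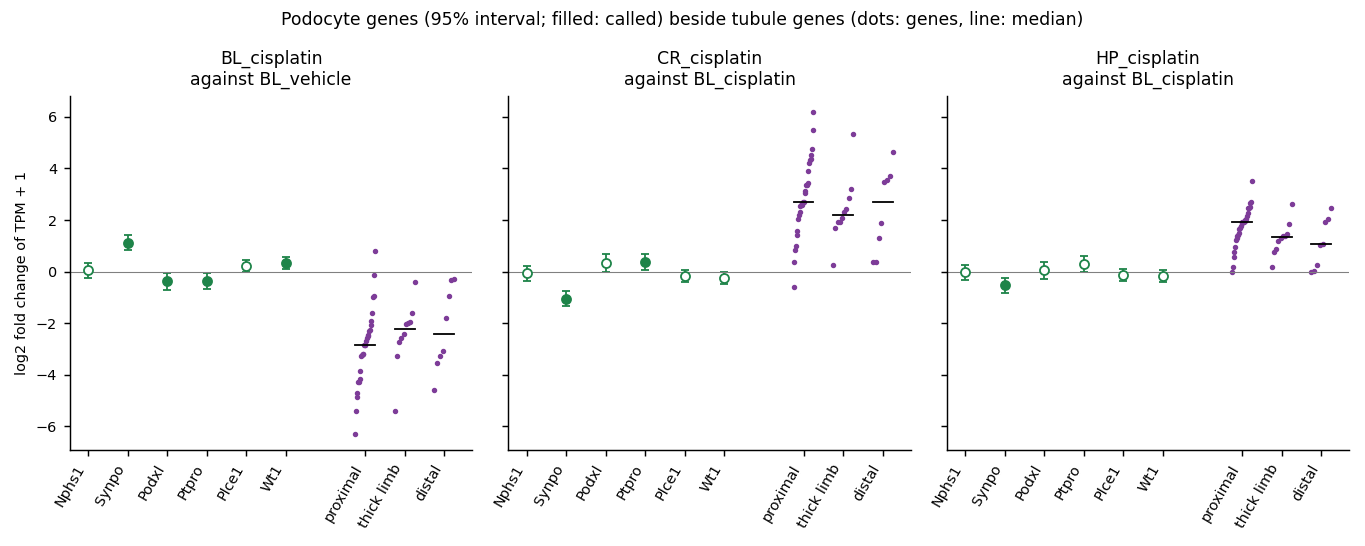
Log2 fold change of TPM + 1 (vertical axis) in 3 comparisons for the 6 podocyte genes (circles, 95% interval, filled where called) and for tubule genes (dots, 1 per gene, with the median as a line). The podocyte genes lie between -0.38 and 1.12 in BL_cisplatin against BL_vehicle, and the proximal tubule genes between -6.28 and 0.81.

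With calorie restriction before cisplatin, Synpo and, in a less stable call, Ptpro differed from cisplatin alone, and no podocyte gene was called against vehicle. Against BL_cisplatin, Synpo was called lower (log2 fold change -1.05, SE 0.136, limma adjusted p = 5.83e-05) and Ptpro higher, and the other 4 genes were not called. The Ptpro libraries of the 2 groups overlapped, and its call was lost in 5 of 16 fits that left out 1 library. The 1 gene called higher and the 1 called lower compare with 29.8% and 37.4% of all genes, 67.3% in all. Of these calls 44.4% were higher, a share that was 32.0% with the abundant genes left out and 53.8% with TMM. Libraries of 1 of the 6 did not overlap (64.8% of all genes). Podxl, at 0.34 (adjusted p = 0.0711), and Wt1, at -0.26 (0.0525), missed the threshold. Against BL_vehicle 0 of the 6 were called with limma (0.0533% of all genes were), 0 had an unadjusted p under 0.05 and 0 were called with voom. Their log2 fold changes lay between -0.04 (Podxl) and 0.09 (Wt1). Of their 95% intervals, the lowest bound was -0.38 (Podxl) and the highest 0.37 (Synpo), so the data do not show that the levels were equal. Of the 28 proximal tubule genes, 26 were called higher in CR_cisplatin than in BL_cisplatin. Against BL_vehicle 0 of 28 were called (0 at an unadjusted p under 0.05, 0 with voom). The comparisons with BL_cisplatin share those libraries, as do those with BL_vehicle.

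After hypoxia the SD of Podxl was 6.89 TPM, against 1.15 in BL_vehicle and 3.51 in BL_cisplatin, and that of Synpo 1.38, against 0.396 and 0.425. The other 4 genes spread less in HP_cisplatin than in BL_cisplatin, with SDs of 0.755 and 1.34 for Nphs1, 0.256 and 0.384 for Wt1, 0.518 and 0.640 for Ptpro, and 0.154 and 0.356 for Plce1. Without HP_cisplatin 4 the SD of Podxl was 7.74 TPM and that of Synpo 0.589 (n = 3). Synpo alone was called, lower than in BL_cisplatin (log2 fold change -0.53, limma adjusted p = 0.0140) and higher than in BL_vehicle (0.60, 0.0132). So 1 of 6 was called in each, where 29.4% and 29.3% of all genes were. In the fit of the compared groups alone, neither was called (adjusted p = 0.114 and 0.135), and with the prefix as a term the first was not (0.464). Without HP_cisplatin 4 the values were -0.36 (limma adjusted p = 0.016) against BL_cisplatin and 0.77 (limma adjusted p = 1.1e-05) against BL_vehicle. Podxl, at -0.33 against BL_vehicle with that library (limma adjusted p = 0.122), was called lower without it (-0.41, adjusted p = 0.0485). CR_cisplatin was called lower than HP_cisplatin for Synpo (-0.52, adjusted p = 0.0281, 24.3% of all genes called), a call lost in 6 of 16 fits without 1 library. Without HP_cisplatin 4 it was -0.69 (limma adjusted p = 2.99e-05). Across HP_cisplatin 1 to 4 the proximal tubule sum was 2340.5, 8283.4, 5551.1 and 11177.5 TPM. HP_cisplatin 1, the lowest, also had the lowest Podxl, Ptpro, Nphs1 and Wt1 of the 4, and HP_cisplatin 4, the highest, the lowest Synpo. For Wt1 the gap was narrow, at 1.29 TPM in HP_cisplatin 1 and 1.32 in HP_cisplatin 4.

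**Figure D3:**
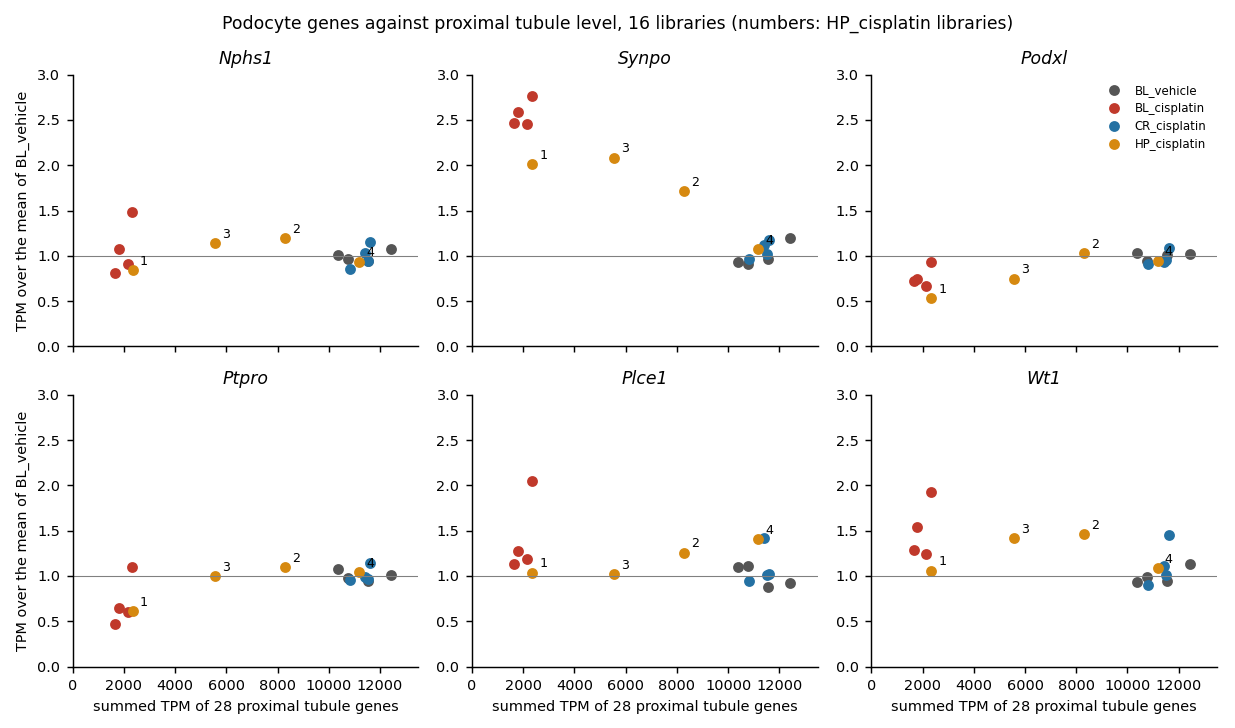
TPM of each podocyte gene over its BL_vehicle mean (vertical axis) against the summed TPM of 28 proximal tubule genes (horizontal axis) in the 16 libraries, with HP_cisplatin libraries numbered. BL_cisplatin lies at 1656.8 to 2325.0 on the horizontal axis, where Synpo is far above 1 and Podxl and, in 3 of 4 libraries, Ptpro are below it.

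Beside the 28 proximal tubule genes of the same library the podocyte genes took a larger place after cisplatin, and this measures the fall of the tubule genes more than the podocyte genes. The mean log2(TPM + 1) of the 28 tubule genes was 7.90 in BL_vehicle, 5.01 in BL_cisplatin, 7.90 in CR_cisplatin and 6.75 in HP_cisplatin. Subtracted from the log2(TPM + 1) of Nphs1, it gave -5.44 ± 0.0752 (SD, n = 4) in BL_vehicle and -2.50 ± 0.189 in BL_cisplatin, a difference of 2.94, although Nphs1 itself moved by 0.05. The differences of the 6 genes ran from 2.51 (Podxl) to 4.01 (Synpo). Those of CR_cisplatin against BL_cisplatin ran from -3.94 (Synpo) to -2.52 (Ptpro), and those of HP_cisplatin from -2.27 (Synpo) to -1.46 (Ptpro), or -1.73 to -1.14 without HP_cisplatin 4. All 18 differences share the same tubule values, and each had the smallest exact two-sided permutation p that 4 against 4 libraries can give, 0.0286, uncalled genes included. That p therefore says nothing of a podocyte gene by itself.

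Levels were also set against Nphs1 within each library, a ratio formed after the values had been seen, and none of these comparisons passed adjustment. Synpo over Nphs1 was 0.622, 0.680, 0.613 and 0.735 in BL_vehicle 1 to 4 and 1.80, 2.02, 1.60 and 1.24 in BL_cisplatin 1 to 4, a fold of 2.48. Ptpro over Nphs1 was 0.524, 0.522, 0.557 and 0.486 in vehicle and 0.346, 0.301, 0.317 and 0.386 in BL_cisplatin, a fold of 0.644. Here BL_cisplatin 4 fell in with its group, although its Ptpro in TPM had been above vehicle. The folds of Podxl (0.730), Wt1 (1.42) and Plce1 (1.32) also came from libraries that did not overlap. Of the 15 ratio comparisons of these 5 genes, over 3 pairs of groups, 0 passed: the smallest exact two-sided permutation p was 0.0286 in 10 of them, and 0.0514 after Benjamini-Hochberg adjustment over all 18 ratio tests run. With 4 against 4 libraries no p can be below 0.0286, so adjustment over 18 tests limits what could pass, whatever the separation. The lack of a pass therefore does not show that the ratios were equal.

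**Figure D4:**
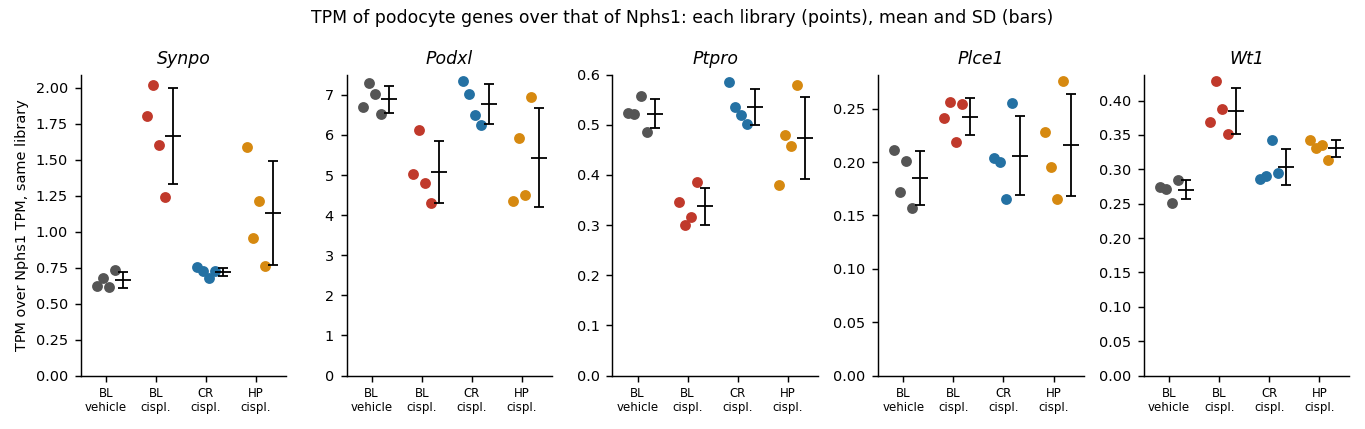
TPM of 5 genes over the TPM of Nphs1 in the same library (vertical axes, from 0) by group, with each library as a point and mean and SD as bars (n = 4). BL_cisplatin lies at 0.301 to 0.386 for Ptpro, below all of BL_vehicle (0.486 to 0.557).

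Other genes known from podocytes were called in both directions after cisplatin, at shares near those of all genes. Of 48 listed, 47 were in the table and 40 passed the filter. Of these 18 were called higher, 13 lower and 9 were not called, where 38% of all genes were higher and 28.8% lower. The median log2 fold change was -0.11, beside 0.08 over all genes. Among membrane and junction genes 6 of 12 were higher and 4 lower. The scaffold Magi2 fell from 2.95 to 1.16 TPM by group mean (log2 fold change -0.87), the chloride channel family member Clic5 from 20.2 to 7.46 (-1.33) and the guidance receptor Robo2 from 1.91 to 0.734 (-0.75), while the ephrin Efnb1 rose from 7.26 to 15.6 (1.01). In the cytoskeletal group 8 of 12 were higher and 3 lower. There the motor protein Myo1e rose from 9.62 to 15.8 TPM (0.67) and the actin binder Anln from 0.298 to 1.56 (0.98), and the scaffold Slc9a3r2 fell from 22.6 to 11.2 (-0.95) and the Rac regulator Arhgap24 from 23.6 to 6.70 (-1.69). Of 6 transcription factors tested, Tcf21 fell from 8.96 to 3.15 TPM (-1.29) and Tcf4 from 2.20 to 1.53 (-0.34), Foxc1 rose from 3.23 to 4.90 (0.50), and 3 were not called. Among 10 basement membrane genes and ligands, Lama5 rose from 18.5 to 74.1 TPM (1.94) and Agrn from 20.0 to 60.2 (1.54), both matrix proteins. Vegfa, the endothelial growth factor, fell from 50.5 to 22.7 TPM (-1.12) and Bmp7 from 11.4 to 8.17 (-0.43). Many of these genes are made by other kidney cells too, the tubule among them. All 15 genes named here were called with limma at an adjusted p of 0.0118 or less. In CR_cisplatin against BL_vehicle 0 of the 40 were called (0 with voom), where 0.0533% of all genes were called with limma. At an unadjusted p under 0.05 there were 2 of the 40, beside 610 of 15014 genes.

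**Figure D5:**
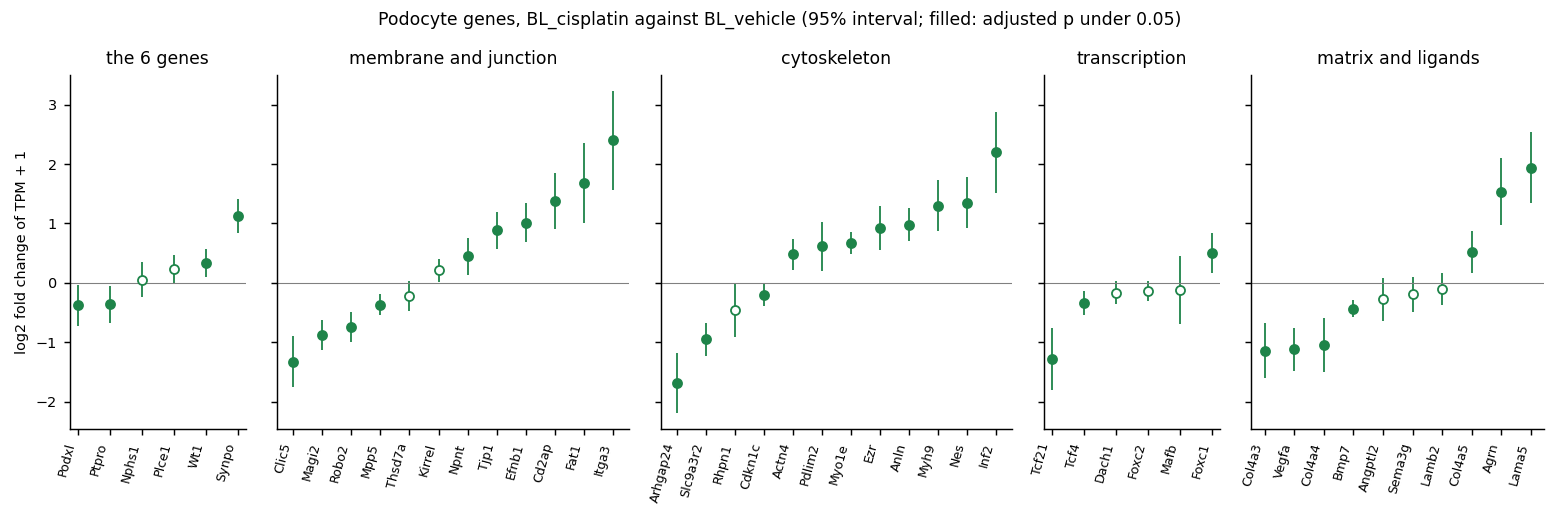
Log2 fold change of TPM + 1 in BL_cisplatin against BL_vehicle (vertical axis) with its 95% interval for the 6 genes and 40 other podocyte genes by role, filled where the adjusted p was under 0.05. Values run from -1.69 (Arhgap24) to 2.40 (Itga3), and the 6 genes lie in the middle of that range.

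Lists of cells that neighbour the podocyte are given beside the same shares of all genes, 38% higher and 28.8% lower. A list is named for a cell, but RNA of whole kidney does not show which cells gave the reads. Of 8 parietal epithelial genes 7 were called higher after cisplatin and 0 lower (median log2 fold change 1.12), led by Akap12, an anchor of protein kinase A, from 4.21 to 170 TPM (5.06), and the claudin Cldn1, from 2.76 to 35.3 (3.25). Of 10 mesangial and pericyte genes 3 were higher and 3 lower (median 0.23), among them the angiotensin receptor Agtr1a (-1.45) and the protease inhibitor Serpine2 (1.84). Of 9 leukocyte genes 6 were tested, with 2 higher and 2 lower: the lysosomal Cd68 rose from 1.72 to 56.7 TPM (4.39) and Itgam from 0.241 to 1.62 (1.06), while Csf1r fell from 12.6 to 4.05 (-1.45) and Adgre1 from 1.67 to 0.667 (-0.71). No listed gene was at 0 in every library.

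Within groups, once group means were subtracted, levels of the podocyte genes varied together in part. Over 16 libraries the median Pearson r of the 15 pairs was 0.59 (from -0.33 to 0.93), given as a description of libraries that share depth and composition. Nphs1 and Wt1 had an r of 0.93, Nphs1 and Ptpro 0.89, Podxl and Ptpro 0.82, and Synpo and Podxl -0.33. BL_cisplatin 4, the highest library of its group for all 6 genes, carried part of this: without it the median was 0.39. Nphs1 and Wt1 stayed at 0.92 and Podxl and Ptpro were at 0.85. Nphs1 and Ptpro fell to 0.77, and Nphs1 and Plce1 from 0.63 to 0.21. Without the HP_cisplatin libraries the median was 0.78 and the lowest r of the 15 pairs 0.29. Synpo and Podxl then had an r of 0.59, so the negative sign of that pair rested on the HP_cisplatin libraries. BL_cisplatin 4 also had the largest TMM factor of the 16 (1.16). Over all genes with a mean log2(TPM + 1) of at least 1, the 3 most like Nphs1 were Wt1, Ddn (0.92), the gene of dendrin, another slit diaphragm protein, and Pkdcc (0.92). Wt1 had Nphs1, Ddn (0.93) and Det1 (0.87), and Synpo had Plk2, Rcan1 (0.95 each) and Parp3 (0.95). Podxl was closest to Qprt (0.96), Mocs2 and Sfxn2 (0.95), Ptpro to Ift81 (0.96), D15Ertd621e and Vps53 (0.95), and Plce1 to Pparg (0.95) and, next of those given here, Prkar2b (0.94).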

How the data were processed

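RNA depleted of ribosomal RNA was measured in 16 mouse kidney libraries, 4 in each of 4 groups taken from the injection and preconditioning labels, with libraries numbered in label order. The authors deposited 1 table of TPM per gene and library. The unit was read from the values, which sum to 1000000 in each library. STAR 2.5, featureCounts and Subread 1.5 and the builds mm10 and GRCm38 are named, with no role or setting, per the submitters' processing notes. TPM are not counts, so log2(TPM + 1) was used, for the 15014 genes that reached 1 TPM in 4 or more libraries, and fitted in limma 3.58.1 (R 4.3.3, statmod 1.5.0), with all 16 libraries, group as the only term and a trended, robust prior variance. Two-sided p-values were adjusted by Benjamini and Hochberg's method across the genes of a comparison, and the threshold was 0.05. All groups share 1 estimate of the spread.

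Reads were recovered by dividing TPM by the value of 1 read: at the exon length of GENCODE M21, 76.4% of expressed genes gave whole numbers in all libraries to within 0.001 reads. Another 7606 did so at a length found by search, the smallest that fits, so totals are lower limits. Recovered reads served voom and the comparison of library pairs (16761 genes with a mean of at least 20 reads), where the squared difference of 2 libraries was divided by that expected from counting. TMM here trimmed 30% of log ratios and 5% of levels on the TPM values. Scaling without abundant genes left out 50 genes. Single values per library were compared by exact two-sided permutation tests over libraries (70 regroupings). The fits were tested on simulated data.

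The 6 genes, the other gene lists and the tests were chosen with earlier results of these data known. Named genes were the 6, reference genes (Havcr1, Lcn2, Slc34a1, Umod), up to 4 genes of each list, those of smallest adjusted p in BL_cisplatin against BL_vehicle, and per gene the 3 with the highest Pearson r. Lists held 28 proximal tubule, 10 thick ascending limb, 8 distal convoluted tubule and 8 tubular injury genes, 48 other podocyte genes, and 12 glomerular endothelial, 10 mesangial and pericyte, 8 parietal epithelial and 9 leukocyte genes. Gene positions are from GENCODE M21 (GRCm38), and promoter sequences from RefSeq (GRCm38.p6). Results that need 2 other genes are not reported here, and p-values of ratios to Nphs1 were adjusted over all 18 tests run, 3 of which are among those left out. Alternatives are given in the closing section. Protein sequences and other promoters were not used here.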

Additional observations from a re-analysis of the deposited data

Results flagged for a closer look

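In 3 of 24 checks of a gene within a group of 4 libraries, 1 library lay far from the other 3 by Dixon's test at the 95% level, and chance alone flags about 1 in 20. Ptpro in CR_cisplatin 3 was 2.68 TPM, above 2.25 to 2.31 in the other 3. Plce1 in BL_cisplatin 4 was 1.70 TPM, above 0.937 to 1.06 in its group. Plce1 in CR_cisplatin 4 was 1.18 TPM, above 0.785 to 0.852.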

How the results depend on the processing

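Each comparison was repeated with a pseudocount of 0.1, without the filter on low values, with abundant genes left out, with TMM scaling, with the compared groups alone, with the title prefix as a term, without each library in turn, and, chosen after seeing the data, with voom on recovered reads. No called podocyte gene changed sign, and Synpo in BL_cisplatin against BL_vehicle was called throughout. In BL_cisplatin against BL_vehicle the number of genes called was 3413 with the prefix as a term, against 10032, and 9299 to 10448 without 1 library. There Plce1 was also called higher with abundant genes left out and with voom. The podocyte genes called higher were 1 with the prefix, 3 with voom and 2 to 3 without 1 library. Those called lower were 0 without the filter, with abundant genes left out, with the prefix and with voom, 1 in the 2 groups alone, and 0 to 2 without 1 library. In CR_cisplatin against BL_cisplatin 6327 genes were called with the prefix, against 10100 (9296 to 10433 without 1 library). The podocyte genes higher were 0 without the filter, with abundant genes left out and with the prefix, 2 with TMM and in the 2 groups alone, and 0 to 2 without 1 library. Those lower were 3 with abundant genes left out and with voom, and 1 to 2 without 1 library.

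Comparisons with HP_cisplatin depended most on the fit. In HP_cisplatin against BL_cisplatin limma called 4420 genes, but 0 in the 2 groups alone (4104 at an unadjusted p under 0.05) and 0 with the prefix (1564 at an unadjusted p under 0.05), voom calling 4845. Without 1 library the count was 2214 to 7114, the lowest without HP_cisplatin 2 and the highest without HP_cisplatin 1, and podocyte genes called higher were 0 to 1. Podocyte genes lower were 0 in the 2 groups alone and with the prefix. In HP_cisplatin against BL_vehicle 11 genes were called in the 2 groups alone, against 4398 (694 without HP_cisplatin 3, the lowest, to 7716 without HP_cisplatin 4, the highest). Podocyte genes higher were 0 there and 0 to 1 without 1 library, and those lower were 0 to 1. In CR_cisplatin against HP_cisplatin limma called 3642 genes, but 0 without the filter, in the 2 groups alone and with the prefix (8511, 3970 and 5553 at an unadjusted p under 0.05), and 0 to 7658 without 1 library. The 0 came without any CR_cisplatin library, HP_cisplatin 1 or HP_cisplatin 3, and the highest without HP_cisplatin 4. Podocyte genes lower were 0 under the same 3 settings and 0 to 1 without 1 library. In CR_cisplatin against BL_vehicle 8 genes were called, 15 without the filter, 89 in the 2 groups alone and 4 to 17 without 1 library.

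The split of calls also moved with scaling: for HP_cisplatin against BL_cisplatin 55.5% of calls were higher, 30% with abundant genes left out and 65.3% with TMM. For HP_cisplatin against BL_vehicle the shares were 65.7% and, with TMM, 46.6%, and for CR_cisplatin against HP_cisplatin 38.1% and 54.7%. The permutation tests beside the proximal tubule genes share the same tubule values, so their count says nothing of a podocyte gene by itself. For HP_cisplatin against BL_cisplatin 6 genes passed, and 0 to 6 without 1 library, while the difference of Nphs1 stayed between -2.172 and -1.375. The cause of these changes was not tested. Where 1 group is left with 3 libraries, the shared spread of all groups was used. No paired analysis was possible because the labels number no replicates. Counting error limits Wt1 and Ptpro most, with 255 and 278 reads in their lowest libraries.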

Other observations

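Genes of the collagen IV chains that form the mature network of the glomerular basement membrane did not move as one after cisplatin. RNA of whole kidney does not show which cells gave their reads, and the membrane itself was not measured. These genes were singled out after their values were seen, although all were on the list of basement membrane genes. Col4a3 fell from a mean of 49.0 to 21.9 TPM (log2 fold change -1.14, limma adjusted p = 0.00041) and Col4a4 from 37.1 to 17.7 (-1.05, adjusted p = 0.000603). Col4a5, the third chain of that trimer, rose from 10.8 to 16.03 TPM (0.52, adjusted p = 0.0113). Libraries of the 2 groups did not overlap for any of these 3 genes, but neither did they for 63.5% of all genes, and 66.8% were called. In CR_cisplatin against BL_cisplatin Col4a3 and Col4a4 were higher (1.39 and 1.31) and Col4a5 lower (-0.39). All were called with limma, as were 67.3% of all genes. Of the laminin chains of the same membrane, Lama5 rose and Lamb2, at 15.2 and 14.0 TPM, was not called (-0.11, adjusted p = 0.456).

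The 3 genes Inf2, Cd2ap and Itga3 rose and were likewise picked after seeing the values, from lists in which Arhgap24 (-1.69) and Magi2 (-0.87) fell. The formin Inf2 rose from 2.09 to 13.2 TPM (2.20, limma adjusted p = 7.18e-05), the slit adaptor Cd2ap from 21.3 to 57.2 TPM (1.39, adjusted p = 0.000116) and the integrin chain Itga3 from 8.91 to 51.8 TPM (2.40, adjusted p = 0.00013). Nphs1 was not called in the same libraries. All 3 genes are also made by epithelial cells of the tubule, whose injury list rose in 7 of 8 genes, and the part of those cells was not tested.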
